A study of Mus musculus with 12 samples.

Results

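Nono knockout (KO) hippocampus was compared with wild-type (WT) hippocampus under the label CT22. The 6 libraries, 3 KO and 3 WT, were chosen by their titles from the 12 of the series, and the other 6 carry the label CT10, which like CT22 is not spelled out. All came from adult C57BL/6 mice, and the labels name no allele, sex or exact age. Polyadenylated RNA of whole hippocampus was read as estimated counts per transcript, which were summed to 23329 genes. Of these, 13941 had enough counts in the 6 libraries to be tested. The labels do not say whether the 3 libraries of a group are 3 animals. The p-values therefore reflect the spread among these libraries, and that spread may be technical.

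NONO, SFPQ and PSPC1 form the DBHS family, nuclear proteins that pair with each other and bind RNA and DNA. They are building blocks of paraspeckles, nuclear bodies assembled on the long noncoding RNA Neat1, and take part in transcription, splicing and DNA repair. NONO is also known as a partner of the PER proteins of the circadian clock. In the hippocampus, clock genes, activity-induced genes and synaptic genes are all measured in the same bulk RNA as glial genes, where fewer cells of a type and less RNA per cell cannot be told apart.

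Library totals at CT22 were 10111075, 4435606 and 8115446 counts in the 3 KO libraries, against 9866154, 9230033 and 10911046 counts in the 3 WT libraries. KO replicate 2, the shallowest, carries the largest counting error. Within a group, log2 expression correlated at 0.9737 to 0.9893 across genes. The defining genes of the labelled tissue were present, as 18 of 18 dentate granule cell, 12 of 12 CA1 and 15 of 15 CA2 and CA3 markers had enough counts to be tested. Some libraries stood apart from their group. KO replicate 1 had dentate granule cell markers at a median of 0.96 (log2) above the WT mean, oligodendrocyte markers at -0.85 and CA1 pyramidal cell markers at -0.64, and its clock genes lay apart from the other 2 KO libraries. Choroid plexus markers, genes of the epithelium that makes cerebrospinal fluid, summed to 234, 825 and 5355 CPM (counts scaled to a common library total) in KO, against 402, 575 and 2197 CPM in WT.

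Nono, the gene that the labels name as knocked out, came first as a check of the labels. It lies on mm10 (chromosome X, 101429651 to 101448593, plus strand) and had 2, 3 and 4 counts in the KO libraries, against 1499, 1522 and 1814 counts in the WT libraries. The 9 KO counts (95% exact Poisson interval 4.12 to 17.08) made 0.246% of the WT expression (0.112% to 0.467% from the counting interval). All 3 KO libraries lay far below all 3 WT libraries, as their labels say. The log2 change was -8.67 ± 0.49 (SE) in DESeq2, a second tool, and -8.61 in edgeR (edgeR adjusted p = 5.05e-13). This change and that of Sfpq were the only ones past an adjusted p of 0.05 in edgeR's quasi-likelihood test, 2 of 13941 genes (0.0143%), 1 lower and 1 higher (0.00717% each). Of the 20 other tested genes within 1000000 bases of Nono, 11 were higher and 9 lower in KO, and 0 passed.

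Sfpq, the family member most often found paired with NONO, rose in KO. Sfpq (chromosome 4, 127021301 to 127037014, plus strand) had 200.5, 208 and 209 CPM in KO, against 149.8, 138 and 139 CPM in WT. The lowest KO library stood well above the highest WT library. The log2 change was 0.53 ± 0.08 (SE), 1.45-fold, with an edgeR adjusted p of 0.0341. Both annotated transcripts were higher. The mRNA NM_023603 had 105, 97.9 and 103 TPM in KO, against 79.6, 62.1 and 56.4 TPM in WT, and the noncoding transcript NR_045010 had 68.1, 86.9 and 82.9 TPM in KO, against 49.1, 53.6 and 58.7 TPM in WT. Neither set of 3 overlapped with the other genotype, although the split of reads between these 2 transcripts is the authors' estimate. With 1 library left out at a time the log2 change of Sfpq stayed between 0.51 and 0.56, while its edgeR adjusted p ran from 0.0407 without WT replicate 1 to 0.301 without WT replicate 2. It passed the threshold in 1 of these 6 fits. When only the 6 CT22 libraries were fitted, without the CT10 libraries to share in the estimate of spread, the change was the same and the adjusted p was 0.527.

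Pspc1 and Rbm14 also stood higher in every KO library, without passing the threshold. Pspc1, the third DBHS gene (chromosome 14, 56722449 to 56778316, minus strand), had 60.5, 54.7 and 58.0 CPM in KO, against 39.1, 46.9 and 48.1 CPM in WT, a log2 change of 0.37 ± 0.10 (edgeR adjusted p = 0.366). Rbm14, an RNA-binding protein needed for paraspeckles (chromosome 19, 4800925 to 4811634, minus strand), had 40.0, 40.8 and 37.3 CPM in KO, against 28.3, 29.1 and 30.7 CPM in WT, a log2 change of 0.42 ± 0.10 (edgeR adjusted p = 0.342). For neither gene did a KO library fall as low as a WT library. Both were higher by similar amounts at CT10, where the log2 changes were 0.41 for Pspc1 and 0.31 for Rbm14, again with no overlap. The CT10 change of Sfpq was 0.19, and its change at CT22 exceeded that at CT10 by 0.35 (unadjusted p = 0.00633, edgeR adjusted p = 0.732).

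Per unit length, the 3 DBHS genes together had 240.7, 245.5 and 250.7 TPM in KO, against 330.9, 332.2 and 324.8 TPM in WT. Nono was the most abundant of the 3 in WT, at 0.48 ± 0.25 TPM in KO and 163 ± 4.37 TPM in WT (SD, n = 3 each). Sfpq averaged 181 ± 6.74 TPM in KO and 119.8 ± 7.63 TPM in WT, and Pspc1 63.9 ± 3.54 TPM in KO and 46.9 ± 3.24 TPM in WT. The higher levels of the other 2 members thus added up to less RNA than the Nono RNA that was missing.

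Since Sfpq, Pspc1 and Rbm14 were all higher in KO, the 250 bases before the start of these genes and of Nono are shown, from RefSeq (build GRCm38.p6). Capitals mark CCAAT on either strand, the CCAAT box bound by the factor NF-Y.
Nono (chrX:101429401-101429650, plus strand): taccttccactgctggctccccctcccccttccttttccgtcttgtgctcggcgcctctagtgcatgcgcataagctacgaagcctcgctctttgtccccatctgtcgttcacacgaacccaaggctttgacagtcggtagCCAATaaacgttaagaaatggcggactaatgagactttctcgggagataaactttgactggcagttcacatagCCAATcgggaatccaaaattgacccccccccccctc
Sfpq (chr4:127021051-127021300, plus strand): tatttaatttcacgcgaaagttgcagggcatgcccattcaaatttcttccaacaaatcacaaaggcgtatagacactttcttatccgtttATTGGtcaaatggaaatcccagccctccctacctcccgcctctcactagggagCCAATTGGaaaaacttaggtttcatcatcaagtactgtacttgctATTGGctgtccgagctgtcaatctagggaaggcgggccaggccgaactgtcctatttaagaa
Pspc1 (chr14:56778319-56778568, minus strand): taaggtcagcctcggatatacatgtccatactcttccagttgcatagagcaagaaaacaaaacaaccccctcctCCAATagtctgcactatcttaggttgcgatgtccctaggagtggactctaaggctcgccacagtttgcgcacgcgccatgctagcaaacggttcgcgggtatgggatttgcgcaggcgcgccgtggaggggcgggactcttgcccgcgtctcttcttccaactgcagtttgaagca
Rbm14 (chr19:4811635-4811884, minus strand): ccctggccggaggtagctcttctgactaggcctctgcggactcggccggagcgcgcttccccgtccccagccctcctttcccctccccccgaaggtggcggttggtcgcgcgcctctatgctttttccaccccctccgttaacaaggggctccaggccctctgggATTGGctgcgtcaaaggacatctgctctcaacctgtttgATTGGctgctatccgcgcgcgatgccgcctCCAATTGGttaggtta
All 4 promoters held a CCAAT box, with 2 matches in Nono, 4 in Sfpq, 1 in Pspc1 and 4 in Rbm14. A pair of the matches in Sfpq, and a pair in Rbm14, overlap as the 2 strands of one palindrome. Of all 32851 promoter windows of this length, 33.8% held the motif, so the match is a common feature. The E-box CACGTG bound by CLOCK and BMAL1, which occurs in 6.02% of windows, and the cAMP response element TGACGTCA, in 1.55%, were in none of the 4, each searched on both strands and with no overlap between the motifs.

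**Figure D1:**
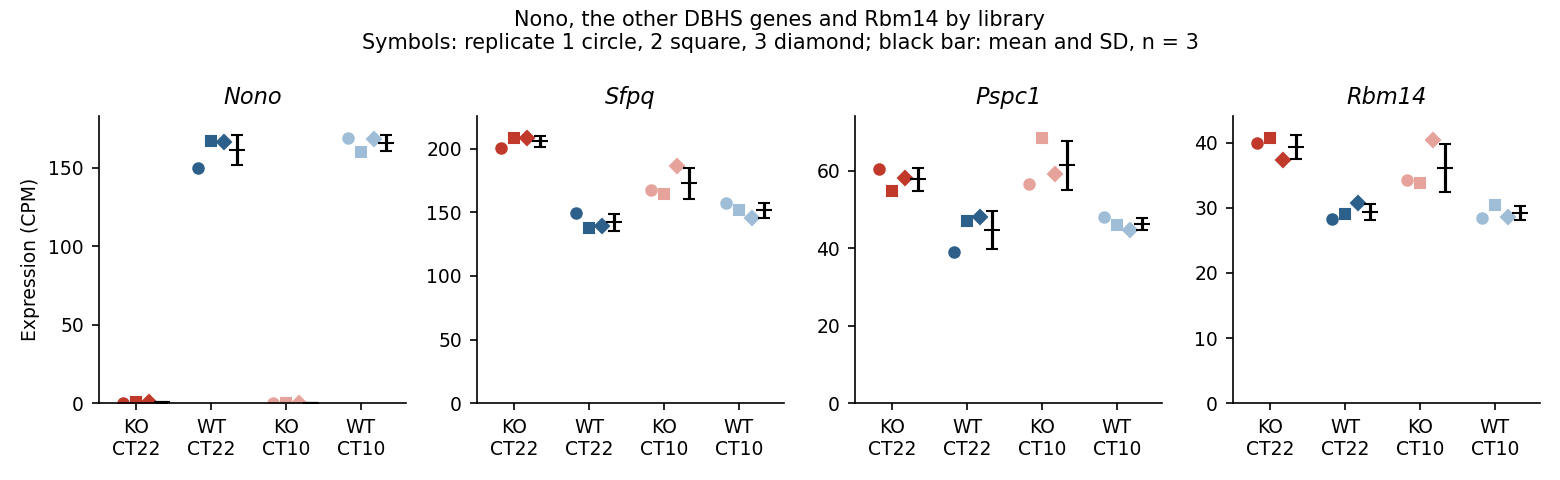
Expression in CPM (y axis, linear) of Nono, Sfpq, Pspc1 and Rbm14 in KO and WT libraries at CT22 (dark) and CT10 (pale), with 1 symbol per library and the mean and SD of each group in black. Nono is near 0 in all KO libraries, and at CT22 the KO libraries of Sfpq (200.5 to 209 CPM), Pspc1 and Rbm14 lie above every WT library.

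A wider list of paraspeckle genes, which includes Sfpq, Pspc1 and Rbm14, was mostly higher in KO. Of the 26 tested genes of a list of DBHS and paraspeckle proteins and RNAs, without Nono, 21 were higher in KO, beside 50.6% of all tested genes. In 6 of them the 3 KO libraries lay above the 3 WT libraries, which held for 7.34% of all genes, and in 0 below, which held for 6.47%. The 6 include Sfpq, Pspc1 and Rbm14, which were described above. Zc3h6, a zinc finger gene, with a log2 change of 0.54, and Rbm12, an RNA-binding protein, with 0.26, are also among them, neither past the threshold. Sfpq alone among the 26 passed the adjusted threshold. The list's median log2 change was 0.09, beside 0.0033 over all genes, and 0.02 without KO replicate 1, 0.05 without WT replicate 1 and 0.14 without KO replicate 3. Neat1 itself was counted over a listed transcript of 3177 bases, so any longer form was not measured as such. It had 85.9, 122 and 111 CPM in KO, against 80.2, 100.04 and 115 CPM in WT, and these groups overlapped. Its log2 change was 0.10 ± 0.19. Malat1, an abundant nuclear RNA of nuclear speckles, had 443, 430 and 317 CPM in KO, against 355, 466 and 312 CPM in WT, also overlapping. Rian, an imprinted noncoding RNA of neurons, was lower in every KO library, at 403, 447 and 508 CPM in KO, against 632, 518 and 519 CPM in WT, a log2 change of -0.30 (edgeR adjusted p = 0.391).

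Splicing factors showed small shifts and 0 of them passed the adjusted threshold. Of 16 SR proteins, which bind exons and recruit the spliceosome, 13 were higher in KO, beside 50.6% of all genes, and 3 of them did not overlap, beside 7.34%. Their median log2 change was 0.08, and it was 0.05 without KO replicate 2 and 0.13 without WT replicate 3. These include Srsf6, with a log2 change of 0.22, and Srrm1, a speckle protein, with 0.24. Of 26 hnRNP proteins and neuronal splicing factors, 19 were higher, with a median of 0.07. That median was 0.04 without KO replicate 1, and it was 0.03 with 16 genes higher once a trend with transcript length, described further on, was taken out of each library. Hnrnpd, which binds AU-rich RNA, had 148, 132 and 138 CPM in KO, against 116, 118 and 114 CPM in WT, and Hnrnpu, a nuclear matrix RNA-binding protein, had 431, 384 and 405 CPM in KO, against 341, 332 and 368 CPM in WT. In both genes the groups did not overlap, with log2 changes of 0.27 and 0.23, which became 0.10 and 0.21 with the length trend taken out. Khdrbs3, a STAR-family splicing regulator, was lower in each KO library, at 123, 178 and 153 CPM in KO, against 180.01, 184 and 181 CPM in WT, although KO replicate 2 lay close to the WT range.

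Across all genes, 1533 had an unadjusted p under 0.05 (11%), 879 higher (6.31%) and 654 lower (4.69%) in KO, and the libraries did not overlap in 1023 genes higher and 902 genes lower. DESeq2, run on the same counts as a second tool, called 30 of the 9616 genes to which it gave an adjusted p (0.312%), 19 higher and 11 lower. Its calls include 28 beyond Nono and Sfpq, and those named in what follows are given as DESeq2 calls, which edgeR did not make.

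Several of the lower genes of smallest p are known to be expressed by astrocytes. Gpc5, a glypican that carries heparan sulfate on the cell surface, had 37.1, 33.6 and 34.6 CPM in KO, against 52.0, 54.0 and 50.1 CPM in WT. Its groups were widely apart, with a log2 change of -0.56 ± 0.10 (edgeR adjusted p = 0.144, DESeq2 adjusted p = 0.00208). Ndrg2, a cytoplasmic protein of astrocytes, had 679.7, 701 and 762 CPM in KO, against 884, 1022 and 1022 CPM in WT, and again no KO library reached the lowest WT library. The log2 change was -0.45 ± 0.08 (edgeR adjusted p = 0.22, DESeq2 adjusted p = 0.000239). S100b, a calcium-binding protein secreted by astrocytes, had 82.9, 86.7 and 94.0 CPM in KO, against 114, 128 and 134 CPM in WT, without overlap, with a log2 change of -0.51 (edgeR adjusted p = 0.226, DESeq2 adjusted p = 0.00389).

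Further genes of this kind lay in the same direction and below the threshold of edgeR. Cst3, which encodes the protease inhibitor cystatin C, had 983, 1010 and 912 CPM in KO, against 1098, 1475 and 1506 CPM in WT, where WT replicate 1 was nearest to KO. Aldoc, the brain form of aldolase, had 849, 920.2 and 868 CPM in KO, against 1011, 1166 and 1150 CPM in WT. DESeq2 called both, and Timp4, an inhibitor of matrix metalloproteases, with a log2 change of -0.55. Scrg1, a secreted protein found raised in scrapie, had a log2 change of -0.50 and was called by neither tool. At CT10 the log2 changes of these genes were -0.29 for Gpc5, -0.21 for Ndrg2, -0.30 for S100b, -0.25 for Cst3, -0.06 for Aldoc, -0.18 for Timp4 and 0.03 for Scrg1. In edgeR's test of the difference between the changes at CT22 and at CT10, 0 of 13941 genes passed the adjusted threshold (0%), 857 had an unadjusted p under 0.05 (6.15%), and DESeq2 called 0.

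Not every astrocyte marker was lower. Of 18 markers, 13 were lower in KO, beside 49.4% of all genes, and 6 did so without overlap, beside 6.47%. Their median log2 change was -0.12 at CT22 and at CT10, and at CT22 it was -0.19 without WT replicate 1. Slc1a2, the main glutamate transporter of astrocytes, lay the other way, at 3599, 3086 and 3005 CPM in KO, against 2814, 2819.9 and 2338 CPM in WT, a log2 change of 0.28. Its value was -0.04 once the length trend was taken out. Summed over the 18 markers, KO libraries had 10188, 9463 and 9265 CPM, against 9658, 10634 and 9490.3 CPM in WT libraries, which overlap.

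**Figure D2:**
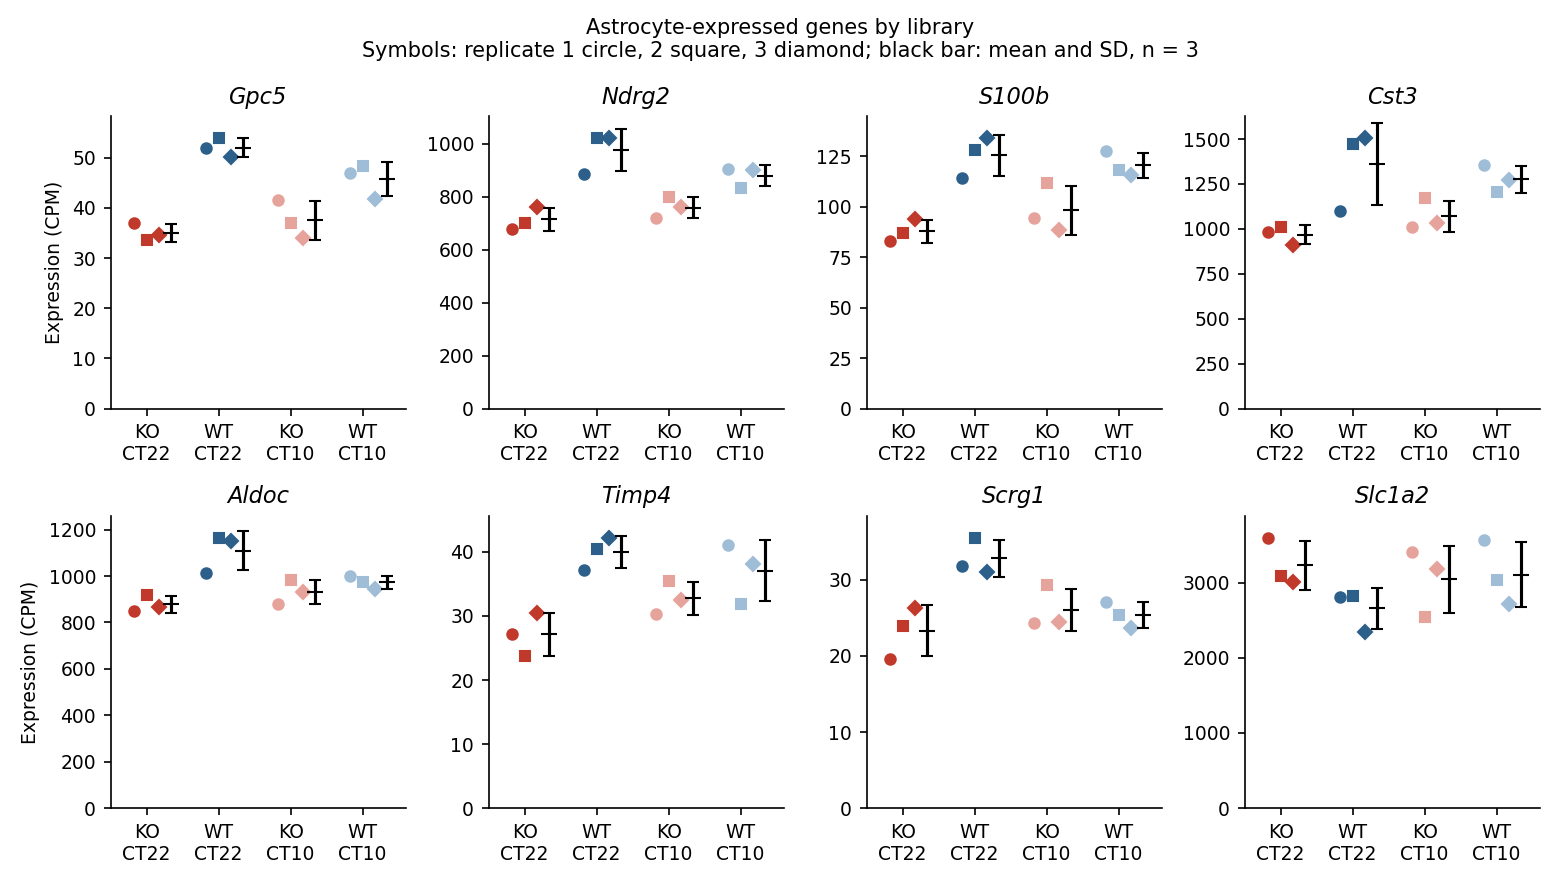
Expression in CPM (y axis, linear) of 8 genes that astrocytes express, in KO and WT libraries at CT22 (dark) and CT10 (pale), with 1 symbol per library and the mean and SD of each group in black. At CT22 the KO libraries of Gpc5 (33.6 to 37.1 CPM), Ndrg2, S100b, Cst3, Aldoc, Timp4 and Scrg1 lie below every WT library, and those of Slc1a2 above.

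Other lower genes of small p had varied roles. The uncharacterised transcript 2900052N01Rik, a DESeq2 call, had 22.2, 21.1 and 20.9 CPM in KO, against 41.0, 33.8 and 32.4 CPM in WT, with a log2 change of -0.74 (edgeR adjusted p = 0.103, the third smallest). It was lower at CT10 as well, by -0.46 on the log2 scale. Nat14, a predicted acetyltransferase and DESeq2 call, had a log2 change of -0.41, and Orai3, a store-operated calcium channel subunit, one of -0.42. Low-count genes were among them. Slc25a34, a mitochondrial carrier, averaged 3.30 ± 0.36 CPM in KO and 6.59 ± 0.28 CPM in WT (SD, n = 3 each). Ctxn2, a cortexin, averaged 4.36 ± 0.57 CPM in KO and 8.29 ± 0.80 CPM in WT (SD, n = 3 each). Gabra2, the alpha-2 subunit of the GABA-A receptor, had 35.6, 43.9 and 40.7 CPM in KO, against 54.5, 47.6 and 52.2 CPM in WT. It was lower at CT22 by -0.37 and at CT10 by -0.33 on the log2 scale, without overlap in either. Of 12 GABA-A subunits 6 were higher and 6 lower at CT22, and Gabra2 was the single one without overlap, a share near that over all genes (7.34% higher and 6.47% lower).

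The higher genes of smallest p had varied roles too. Kif26b, an unconventional kinesin, had 33.0, 25.1 and 19.0 CPM in KO, against 12.9, 16.3 and 12.6 CPM in WT, with a log2 change of 0.89 ± 0.18. Rreb1, a zinc finger transcription factor downstream of RAS, had 162, 124 and 137 CPM in KO, against 105, 78.8 and 76.2 CPM in WT. Ylpm1, a nuclear protein, had 136, 139 and 141 CPM in KO, against 107, 96.7 and 91.7 CPM in WT. In these 3 genes every KO library lay above every WT library, and DESeq2 called each of them, while the edgeR adjusted p was 0.338 for all 3.

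Pura, a single-stranded nucleic acid-binding protein of neurons, had 22.04, 27.1 and 24.8 CPM in KO, against 14.7, 16.5 and 13.8 CPM in WT, a log2 change of 0.71. Camk4, the nuclear kinase that phosphorylates CREB, had 158, 135 and 149.7 CPM in KO, against 115, 113 and 96.7 CPM in WT, a log2 change of 0.45. Gabbr2, a subunit of the GABA-B receptor, had 312, 271 and 265 CPM in KO, against 215, 224 and 179.98 CPM in WT, a log2 change of 0.45. DESeq2 called these 3 genes, and none of their groups overlapped. Mpdz, a multi-PDZ scaffold (0.51), and Slc35e2, a solute carrier (0.46), were DESeq2 calls too, while Itpripl2 (0.68) was not called by either tool, all as log2 changes. Bmper, a secreted regulator of BMP signalling, was higher by 0.72 at CT22 and by 0.64 at CT10 on the log2 scale, without overlap in either. For Kif26b, Rreb1, Pura, Camk4, Gabbr2 and Mpdz the CT10 log2 change lay between -0.09 and 0.02. It was 0.12 for Ylpm1, 0.17 for Slc35e2 and 0.23 for Itpripl2, and in Slc35e2 and Itpripl2 every KO library was above every WT library at CT10 as well.

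A gradient with transcript length ran through this comparison. The tested genes were ranked by their longest transcript and split into 5 classes of near-equal size. The median log2 change at CT22 was -0.13, -0.05, -0.01, 0.04 and 0.16 from the shortest to the longest class, against 0.03 in the shortest and -0.01 in the longest at CT10. In the longest class 82.6% of genes were higher in KO, and in the shortest 24.9%. Of the genes without overlap, 500 of the 1023 higher ones were in the longest class, and 337 of the 902 lower ones in the shortest. The WT libraries differed in the same respect. Relative to the WT mean, the longest class had medians of 0.19, 0.13 and 0.17 (log2) in the KO libraries, against 0.11, 0.03 and -0.13 in the WT libraries, so WT replicate 1 lay near KO and WT replicate 3 at the other end. Without WT replicate 3 the medians of the shortest and longest classes were -0.07 and 0.09.

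**Figure D3:**
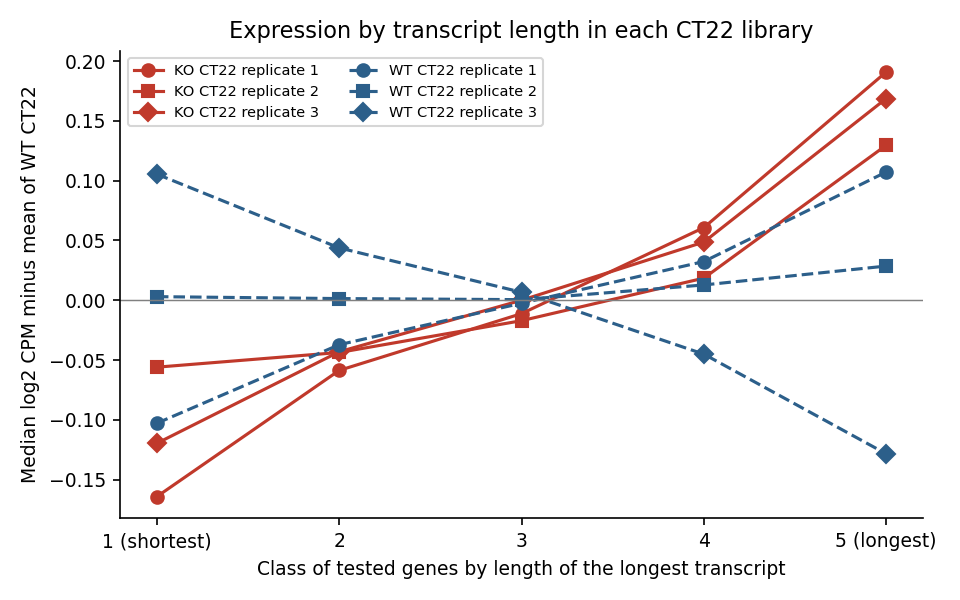
Median log2 expression relative to the mean of the 3 WT libraries (y axis) in 5 classes of the tested genes by length of the longest transcript (x axis), with 1 line per CT22 library, KO solid and WT dashed. The KO lines run upward to 0.13 to 0.19 in the longest class, WT replicate 1 runs with them to 0.11, and WT replicate 3 runs the other way.

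An additional fit took a smooth trend with transcript length out of each library. It called the same 2 genes, Nono and Sfpq, Sfpq with an edgeR adjusted p of 0.0103, and left 774 genes higher and 832 lower without overlap. Sfpq (0.52), Pspc1 (0.41), Rbm14 (0.43), Gpc5 (-0.55), Ndrg2 (-0.40), S100b (-0.43) and Pura (0.79) kept log2 changes of like size. Kif26b (0.70) and Rreb1 (0.44) had smaller ones, and Camk4 had one of 0.12, against 0.45 in the first fit. The other lower astrocyte-expressed genes had smaller ones too, -0.34 for Cst3, -0.35 for Scrg1, -0.26 for Aldoc and -0.45 for Timp4. In the first fit these were -0.49, -0.50, -0.34 and -0.55. Genes with very long transcripts differed more between the fits. Pclo and Bsn, giant scaffolds of the presynaptic active zone, had log2 changes of 0.54 and 0.36 in the first fit, and of 0.09 and -0.03 with the trend taken out. Prkdc and Atm, kinases of DNA double-strand break repair, a process in which NONO takes part, had 0.34 each in the first fit and 0.01 each in this one.

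Ion channel genes and those of NMDA, kainate and metabotropic glutamate receptors were mostly higher in KO, and 0 of them passed the adjusted threshold. In the longest class 82.6% of genes were higher, and 500 of 2788 were so without overlap, beside 50.6% and 7.34% of all genes. Of 26 voltage-gated sodium and calcium channel genes, whose longest transcripts have a median of 7700 bases, 19 were higher, 5 of them without overlap. Their median log2 change was 0.22 at CT22 and -0.03 at CT10. Cacna1e, an R-type calcium channel, had 354, 307 and 262 CPM in KO, against 223, 243 and 157 CPM in WT, and Scn9a, a sodium channel, had 2.605, 3.59 and 3.38 CPM in KO, against 2.40, 1.21 and 1.65 CPM in WT. The median of this list was 0.09 without WT replicate 3 and 0.05 with the length trend taken out. Of 76 potassium channel genes, 49 were higher, beside 50.6% of all genes, with a median of 0.14. That median was 0.07 without KO replicate 3, 0.05 without WT replicate 3 and 0.05 with the trend taken out. Kcna3, a voltage-gated channel, was among the higher ones, with a log2 change of 0.86, and Kcnn1, a calcium-activated channel, among the lower ones, at -0.42, both without overlap.

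Among glutamate receptor genes, 9 of 13 NMDA and kainate receptor subunits and 6 of 7 metabotropic receptors were higher, beside 50.6% of all genes. Their median log2 changes were 0.18 and 0.17, which became 0.09 and 0.01 with the trend taken out. The median of the metabotropic list was 0.02 without WT replicate 3 and 0.29 without WT replicate 1. Shisa6 and Shisa9, auxiliary proteins of AMPA receptors, had log2 changes of 0.51 and 0.42 without overlap, while the AMPA receptor list as a whole had 6 of 14 genes higher and a median of -0.01. Clustered protocadherins, adhesion proteins of neuronal identity, had 38 of 56 higher, beside 50.6% of all genes. Their median was 0.08, and 0.13 without WT replicate 1. With the trend taken out 29 were higher and 27 lower, with a median of 0.02. Pcdhgb7 had 19.4, 19.1 and 19.3 CPM in KO, against 15.9, 13.7 and 12.4 CPM in WT, and Pcdha7 a log2 change of 0.61.

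Genes for cytosolic ribosomes, whose longest transcripts have a median of 693 bases, and for respiration lay lower in KO. Of 84 cytosolic ribosomal protein genes 82 were lower, 21 without overlap. In the shortest length class 24.9% of genes were higher, and 337 of 2790 were lower without overlap, beside 6.47% of all genes. The 84 genes had a median log2 change of -0.21, and 0 passed the adjusted threshold. Their summed expression was 14630, 15442 and 14103 CPM in KO, against 14867, 17356 and 18907 CPM in WT, so that WT replicate 1 lay within the KO range. Rpl26 had a log2 change of -0.70. Ribosomal protein genes have many processed copies in the genome, so single members are uncertain. Of 82 oxidative phosphorylation subunits, whose longest transcripts have a median of 680 bases, 79 were lower, 16 without overlap, beside the same shares. Their median was -0.20, and they include Ndufa12 of complex I (-0.38) and Cox6b1 of complex IV (-0.32). Of 76 mitochondrial ribosomal proteins 67 were lower, with a median of -0.15, among them Mrpl10 (-0.31). With the length trend taken out, the medians of the cytosolic ribosomal, respiratory and mitochondrial ribosomal lists were -0.06, -0.06 and -0.03, and at CT10 they were -0.0046, 0.02 and 0.03. Without WT replicate 3 they were -0.13, -0.12 and -0.07 at CT22.

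Markers of other cell types also differed between libraries of one genotype. Of 19 microglia markers 15 were lower in KO, 5 without overlap, beside 6.47% of all genes. Their median log2 change was -0.22, and -0.12 with the length trend taken out, and their summed expression was 738, 722 and 683 CPM in KO, against 751, 875 and 840.3 CPM in WT. C1qc, a complement component, had a log2 change of -0.39, and Ctss, the protease cathepsin S, one of -0.42, without overlap. Itgam, a microglial integrin, lay the other way at 0.13, and 0 of the list passed. All 15 oligodendrocyte markers were lower, by a median of -0.22, but their sum was 3983 CPM in KO replicate 1 and 7219 and 7202 CPM in the other 2 KO libraries, against 6535, 8227 and 7785 CPM in WT. Without KO replicate 1 the median was -0.0004, without KO replicate 2 it was -0.34 and without KO replicate 3 it was -0.40.

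Hippocampal field markers followed KO replicate 1 in the same way. Of 18 dentate granule cell markers 17 were higher in KO, with a median log2 change of 0.33, and of -0.06 without that library. It was 0.18 without WT replicate 1, 0.51 without WT replicate 2 and 0.58 without KO replicate 3. Their sum was 1861 CPM in KO replicate 1, 1110.3 and 971 CPM in the other 2 KO libraries, against 894, 1209.9 and 1034 CPM in WT. Glis3, a transcription factor of this list, had 16.8, 6.72 and 10.6 CPM in KO, against 5.70, 6.25 and 5.59 CPM in WT. Dcx, a marker of young neurons, had 35.1, 21.3 and 25.7 CPM in KO, against 19.6, 19.3 and 18.6 CPM in WT. In both genes KO replicate 1 was the highest library, and without it the log2 change was 0.60 for Glis3, against 1.01 with it, and 0.30 for Dcx, against 0.54. CA1 markers were lower in 10 of 12 cases, with a median of -0.30, and of -0.12 without KO replicate 1, or of -0.12 without WT replicate 1, whose CA1 markers were the highest. The CA1 marker Fibcd1, a DESeq2 call, had 118, 178 and 189 CPM in KO, against 341, 251 and 240.5 CPM in WT. The part of tissue composition in these values was not tested.

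Markers of neighbouring tissue had higher medians in KO at CT22, although choroid plexus markers in KO replicate 1 had a median of -1.41 relative to the WT mean. At CT10 the median log2 changes were 1.12 for choroid plexus, 0.49 for meningeal and fibroblast, and 0.09 for striatal markers. Choroid plexus markers at CT22 were higher in 16 of 16 cases by a median log2 change of 1.38. That median was -0.73 without KO replicate 3 and 2.48 without WT replicate 3. Of the 16, 0 were free of overlap, beside 7.34% of all genes higher without overlap. Meningeal and fibroblast markers were higher in 16 of 18, 4 of them without overlap, beside 7.34% of all genes. Their sum was 908, 1124 and 1517 CPM in KO, against 979, 563 and 519 CPM in WT, where WT replicate 1 reached the KO range. Striatal markers had a sum of 212, 249.9 and 367 CPM in KO, against 215, 189 and 197 CPM in WT, with a median of 0.33, and of -0.01 without KO replicate 3, 0.58 without KO replicate 1 and 0.62 without WT replicate 1. Pde10a, a phosphodiesterase of striatal neurons and a DESeq2 call, had 110.2, 95.9 and 115 CPM in KO, against 77.8, 67.8 and 53.9 CPM in WT. Of 14 thalamus and habenula markers 13 were higher, 3 without overlap, beside 7.34% of all genes. Their median was 0.35, and 0.12 without KO replicate 3, beside 0.11 at CT10. Prkcd, a thalamic marker, had 38.0, 36.3 and 67.3 CPM in KO, against 18.7, 35.9 and 27.1 CPM in WT. The beta-globin gene Hbb-b1, also a DESeq2 call, had 22.1, 32.0 and 18.7 CPM in KO, against 8.71, 3.84 and 6.41 CPM in WT, but its near-identical copies share reads and its level is uncertain.

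**Figure D4:**
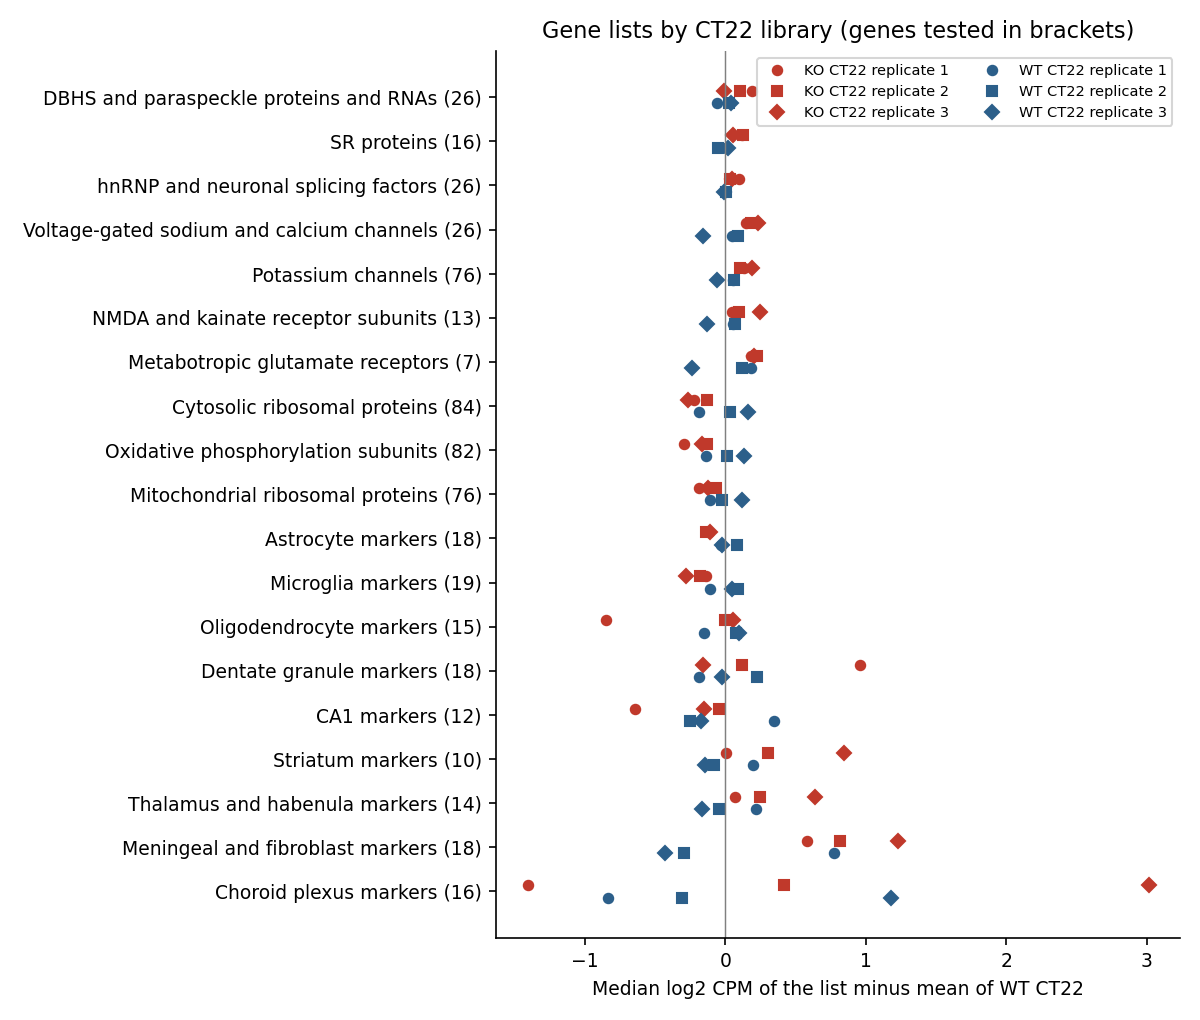
Median log2 expression of 19 gene lists relative to the mean of the 3 WT libraries (x axis), with 1 symbol per CT22 library, KO above WT in each row and the number of tested genes in brackets. KO replicate 1 stands apart in oligodendrocyte (-0.85), dentate granule (0.96) and CA1 (-0.64) markers, KO replicate 3 in choroid plexus (3.01) and striatum (0.84) markers.

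Clock genes separated KO replicate 1 from the other 2 KO libraries. Dbp, a transcription factor driven by the clock, had 90.9, 32.3 and 32.9 CPM in KO, against 43.2, 50.5 and 59.6 CPM in WT. Nr1d1, which encodes the clock repressor REV-ERB alpha, had 125, 67.0 and 72.4 CPM in KO, against 81.4, 69.2 and 76.7 CPM in WT. Per3 had 68.7, 48.0 and 39.9 CPM in KO, against 49.6, 50.6 and 49.1 CPM in WT. In all 3, KO replicate 1 was above every WT library at CT22. Under the label CT10, KO replicate 3 stood apart in reverse, with 33.6 CPM of Dbp and 72.8 CPM of Nr1d1, against 70.5 to 95.03 CPM and 108 to 113 CPM in the 3 WT libraries at CT10. In Dbp and Nr1d1, KO replicate 1 of CT22 was thus near the other 2 KO libraries of CT10 (93.8 and 105.7 CPM of Dbp, 112 and 117 CPM of Nr1d1), and KO replicate 3 of CT10 was near the other 2 KO libraries of CT22. Whether these 2 libraries carry each other's CT label was not tested, and the labels were kept as given. Without both, edgeR called 1 gene at CT22, Nono, while Sfpq was 0.54 higher on the log2 scale and missed the threshold, at an adjusted p of 0.122 in edgeR.

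With all libraries, the log2 change of Dbp was 0.06 ± 0.50, and without KO replicate 1 it was -0.66. That of Nr1d1 was 0.23, or -0.13 without that library, that of Nr1d2 0.08 or -0.20, and that of Per3 0.08 or -0.20. Of the 9 clock activators and REV-ERB or ROR genes 8 were higher in KO by a median of 0.12, and of 12 repressors and kinases 4 were, with a median of -0.04. In 0 of these 21 genes were the groups free of overlap, beside 7.34% of all genes higher and 6.47% lower without overlap. The first median was 0.01 without KO replicate 3, 0.05 without WT replicate 3, 0.25 without WT replicate 1, and 0.01 with 6 genes higher once the length trend was taken out. The second was -0.06 without KO replicate 1, -0.01 without KO replicate 3, -0.01 without WT replicate 3, and -0.06 with the trend taken out. Per2 had 62.6, 48.2 and 48.1 CPM in KO, against 48.3, 42.5 and 35.9 CPM in WT, an overlap of a single WT library, and a log2 change of 0.34 (unadjusted p = 0.0205). At CT10 it was lower in every KO library by -0.32, and the difference of 0.65 between the labels had an unadjusted p of 0.00281 and an edgeR adjusted p of 0.732. Per1 had 104, 117 and 93.3 CPM in KO, against 99.2, 88.0 and 97.6 CPM in WT, which overlap.

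**Figure D5:**
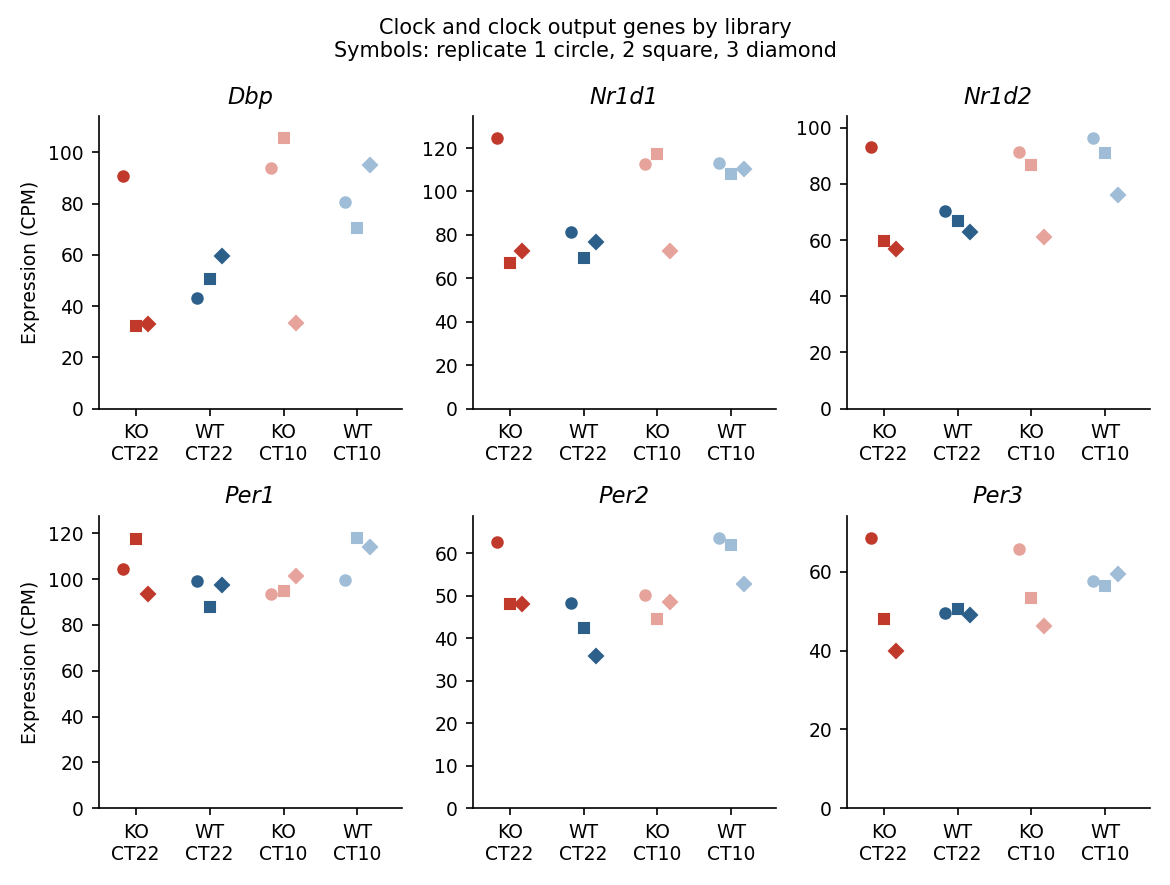
Expression in CPM (y axis, linear) of 6 clock and clock output genes in KO and WT libraries at CT22 (dark) and CT10 (pale), with 1 symbol per library. KO CT22 replicate 1 (Dbp 90.9 CPM) lies apart from the other 2 KO libraries at CT22, and KO CT10 replicate 3 (33.6 CPM) from the other 2 at CT10.

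Among activity-induced genes, CREB factors and glucocorticoid-induced genes, 0 passed the adjusted threshold. Of 19 activity-induced transcription factors 15 were higher in KO, with a median log2 change of 0.14. That median was 0.05 without WT replicate 2, 0.06 without KO replicate 2, 0.06 without KO replicate 3 and 0.25 without KO replicate 1. The groups did not overlap in 1 of the 19, beside 7.34% of all genes higher without overlap. It was Nr4a3, an orphan nuclear receptor, with 35.7, 36.3 and 39.04 CPM in KO, against 23.7, 31.8 and 27.1 CPM in WT. Of 12 CREB factors and coactivators 9 were higher. Crebbp, the coactivator CBP, had a log2 change of 0.35 and Creb1 itself one of 0.30, while Atf4, a factor of the integrated stress response, had one of -0.25, all 3 without overlap. With the length trend taken out these were 0.16, 0.07 and -0.18. The list's median was 0.09, and it was 0.0066 without KO replicate 1 and 0.04 with the length trend taken out. Of 27 glucocorticoid-induced genes 18 were lower, with a median of -0.09, and of -0.25 at CT10. With 1 library left out at a time the CT22 median ran from -0.18 without WT replicate 1 to 0.0002 without WT replicate 3, and with the length trend taken out it was -0.0063, with 12 genes higher and 15 lower. In this list 1 gene was higher without overlap and 2 were lower, beside 7.34% and 6.47% of all genes. Tsc22d3, the glucocorticoid-induced leucine zipper, had 58.4, 48.9 and 60.3 CPM in KO, against 63.0, 72.7 and 70.6 CPM in WT, a log2 change of -0.29. Errfi1 was the higher one, with a log2 change of 0.26.

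The KO effects at CT22 and CT10 were set side by side, since they share no library. Of the 1532 genes other than Nono with an unadjusted p under 0.05 at CT22, 737 had the same sign at CT10 (48.1%), beside 47.2% over all genes. Of the 349 genes with a p under 0.01 it was 56.2%, and of the 32 genes under 0.001 it was 68.8%. At CT10 the groups were apart in 692 genes higher (4.96%) and 751 genes lower in KO (5.39%). In 113 genes (0.811%) the groups were apart in the same direction at both labels, 52 higher and 61 lower, among them Sfpq, Pspc1, Rbm14, Bmper, Gpc5, Ndrg2, S100b, Cst3, Gabra2 and Rian. In 61 genes (0.438%) they were apart in opposite directions. At CT10, 1 gene, Nono, passed the adjusted threshold (0.00717%).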

How the data were processed

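Hippocampal RNA was made into stranded mRNA libraries and read on an Illumina instrument, as paired-end or single-end reads that are not assigned to libraries, per the labels' protocols. FastQC, TopHat 1.3.3, RSEM 1.2.5, edgeR 3.0.6 and the build mm10 were used, per the submitters' processing notes. The deposited files hold estimated counts and TPM per transcript, per the file headers, for 30383 transcripts. Estimated counts were summed by gene symbol and rounded. A deposited table that joins both CT labels was not used, and 0 columns were left unmatched.

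Genes were filtered on the 6 CT22 libraries with filterByExpr (minimum count 10), scaled by TMM and fitted in edgeR 4.0.16 (R 4.3.3), with a robust quasi-likelihood fit of 4 groups over all 12 libraries (8 residual degrees of freedom, biological coefficient of variation 12.2%). Benjamini-Hochberg adjustment ran over the 13941 genes tested, with a threshold of 0.05. CPM are TMM-scaled. The model was also run on counts simulated from its own fitted spread, without a length gradient or libraries that stand apart. That run cannot show how well the model holds in these data. Alternatives were DESeq2 1.42.0, limma-voom (limma 3.58.1), other scalings and filters, a replicate block and left-out libraries. The fits without libraries that stand apart in clock genes and with a length trend subtracted were chosen after seeing the data.

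Genes are named by a fixed rule: Nono, genes past the threshold, the genes of smallest p without overlap (up to 12 a direction, mean of at least 2 CPM), the 2 members of largest change without overlap per list and direction, any DBHS or clock gene, and DESeq2 calls. Some genes that meet it are not reported here. Lists and rule were chosen with earlier results of these data known. Lists are described by counts and medians, with no test. Intervals at 95% cover counting error only. The sources used here do not give the use of strand in counting, which leaves overlapping genes uncertain.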

Additional observations from a re-analysis of the deposited data

Results flagged for a closer look

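The log2 change of Errfi1, an inhibitor of EGF receptor signalling, differed between the labels by 0.61. It had 51.9, 56.7 and 58.0 CPM in KO, against 44.3, 50.9 and 43.9 CPM in WT at CT22, and 43.4, 48.4 and 52.3 CPM in KO, against 59.2, 60.6 and 63.5 CPM in WT at CT10, so that every KO library was above WT at CT22 and below WT at CT10. The difference had an unadjusted p of 0.000473 and an edgeR adjusted p of 0.732. Tiparp, a mono-ADP-ribosyltransferase, differed in the same way by 0.77 on the log2 scale (edgeR unadjusted p = 0.0018, edgeR adjusted p = 0.732). It had 24.6, 20.8 and 19.8 CPM in KO, against 16.3, 19.3 and 18.8 CPM in WT at CT22. At CT10 it had 18.3, 16.8 and 24.7 CPM in KO, against 26.3, 28.8 and 30.1 CPM in WT. Neither difference passed the threshold. Groups of 3 were too small for a search for outlying samples.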

How the results depend on the processing

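The count of 2 genes past the threshold at CT22 stayed at 2 under RLE and upper quartile scaling, without a filter, with a minimum count of 30, with the filter over all 12 libraries, in limma-voom, in the fit that was not robust and with the length trend subtracted. It was 1 in the fit of only the 6 CT22 libraries, 1 without the highest library of each group in choroid plexus markers (KO replicate 3 and WT replicate 3), 1 without the 2 KO libraries that stand apart in clock genes, and 30 in DESeq2. With the replicate number as a block the count was 1. Same-numbered KO and WT libraries at CT22 correlated at -0.215, -0.14 and -0.0227 in their deviations from the group means, and no KO library correlated best with its own number, so the numbers were not taken to pair the samples. Leaving out 1 library at a time gave 1 to 4 genes, with Nono in each and 4 without WT replicate 1 (Nono, Cst3, Sfpq and Rreb1), 2 without KO replicate 2 (Nono and Lars2, a gene named after its value was seen). Genes with an unadjusted p under 0.05 ran from 661 without WT replicate 3 to 2384 without WT replicate 1, beside 1533. The difference between the labels could not be tested in the fit of only the 6 CT22 libraries. In the other fits 0 genes passed for it, DESeq2 included, with 454 to 1469 genes at an unadjusted p under 0.05, a number not taken with the length trend subtracted. Genes without overlap numbered 1925, 1920 under RLE scaling and 1606 with the length trend subtracted. The share with the same sign at CT10 was 48.1% at a p under 0.05 and 56.2% at a p under 0.01. Of 1492 values of 79 named genes under these alternatives, 1442 kept their sign and their side of the threshold and 21 passed it in addition, 19 of them in DESeq2 and 2, Cst3 and Rreb1, without WT replicate 1. Sfpq missed it in 9, and 20 values of 8 genes had the other sign. Leaving out 1 library at a time, the log2 change ran from -0.036 to 0.229 for Neat1, from -0.051 to 0.248 for Malat1, from -0.659 to 0.313 for Dbp, from -0.127 to 0.382 for Nr1d1, from -0.205 to 0.211 for Nr1d2 and from -0.200 to 0.243 for Per3. Without the 2 KO libraries that stand apart in clock genes it was -0.025 for Malat1, -0.656 for Dbp, -0.125 for Nr1d1, -0.202 for Nr1d2 and -0.198 for Per3. With the length trend subtracted it was -0.100 for Malat1, -0.036 for Slc1a2, -0.027 for Bsn and -0.056 for Per3. Dbp had -0.068 in limma-voom and -0.115 with the replicate block. The cause of these shifts was not tested. Depth limits low genes most in KO replicate 2, where 3 counts correspond to 0.672 CPM.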
